A study of Mus musculus with 2 samples.

Results

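The genes described here mostly encode core parts of the spliceosome and the RNA-binding proteins and kinases that steer splicing. They were chosen by symbol from a RefSeq gene table of mouse build GRCm38.p6, the assembly that mm10 names. Protein-coding genes of the families Snrp, Lsm, Sf3a, Sf3b, Prpf, Srsf, Hnrnp and Clk (Clk1 to Clk4) gave 83 members of 21883 protein-coding genes, MT genes left out. Lsmem1 and Lsmem2 share letters with the Lsm family but are not of it and were left out. Hnrnpa1l2-ps2 is listed as protein-coding although its symbol names a pseudogene, and it was kept. The members are 12 Snrp, 13 Lsm, 3 Sf3a, 6 Sf3b, 13 Prpf, 11 Srsf, 21 Hnrnp and 4 Clk genes.

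The occupancy of YY1, a zinc finger protein that binds promoters and can raise or lower transcription, was profiled in mature adipocytes of wild type C57 males aged 8 to 10 weeks. The cells came from iWAT, the subcutaneous fat of the groin. One condition was housing at room temperature and the other 7 days of cold stress, with 1 library each, so replicate spread is unknown and no p-value was computed between conditions. Both libraries used an antibody against YY1, and the labels do not say how many animals gave the cells. The labels name ChIP-seq, while their protocol describes CUT&Tag, where the antibody brings a transposase that cuts and tags nearby DNA. Such libraries also tag open chromatin, which was not told apart from YY1 binding.

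Splicing removes introns from transcripts. The Snrp genes encode the proteins of the small nuclear ribonucleoproteins, mainly the Sm ring. Several Lsm genes, but not all, encode subunits of related rings. Sf3a and Sf3b form the part of the U2 particle that holds the branch point. Prpf proteins assemble and rearrange the catalytic core. Srsf genes encode SR proteins, which mostly favour exon use, Hnrnp genes encode abundant RNA-binding proteins that often oppose it, and Clk kinases phosphorylate SR proteins. The activity of Clk kinases is known to respond to small changes of body temperature.

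The authors listed 165 peaks at room temperature and 1259 after cold. The lists hold no read counts, so the pileup, the number of fragments covering a summit, was recovered from each peak's deposited fold enrichment and p. The absolute depths are unknown. The lowest background at a listed peak was 0.537 fragments in the room temperature library and 0.57 in the cold library. Whether these reflect the relative depth was not tested. Peak names contain a 30 (room temperature) or a 4 (cold). Their meaning is unknown here, and if they were housing temperatures, the baseline would be warmer than its label. Of 8 adipocyte marker genes, including Adipoq, Fabp4 and Pparg, 0 had a peak in either library. Of 32 marker genes of macrophages, fibroblasts, endothelium and lymphocytes, 1 did, Pecam1 after cold. Binding at a gene does not measure its expression, so these counts do not check the cell type.

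A gene was counted as having a peak when a summit lay inside it or within 1 kb of either end. After cold, 28 of the 83 splicing genes had a peak, 33.7% (exact 95% binomial interval 23.7 to 44.9), where 6.43% of all protein-coding genes did. At room temperature 8 did, 9.64% (4.25 to 18.1), where 0.864% of all protein-coding genes did. All 8 were also in the cold list. Nearly every gene listed at room temperature was, 186 of 189, so this overlap was not particular to splicing genes. The members in both lists were thus 9.64% of the 83, where 0.85% of all protein-coding genes were in both. In neither list were 55 members. Counting only summits within 1 kb of a gene end gave 24 members after cold, where 5.64% of all protein-coding genes did, and 7 at room temperature, where 0.772% did. The comparison between the conditions follows the much longer cold list. When only the 165 strongest cold peaks were kept, 3 members remained, Hnrnpul1, Srsf3 and Hnrnpa2b1 (3.61%, where 0.905% of all protein-coding genes did), fewer than the 8 of the room temperature list of the same length.

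The families differed in their counts. After cold, 11 of 21 Hnrnp genes had a peak (52.4%, 29.8 to 74.3), 5 of 11 Srsf genes (45.5%, 16.7 to 76.6) and 2 of 4 Clk genes (50%, 6.76 to 93.2). Of the Sf3b genes 3 of 6 had a peak (50%, 11.8 to 88.2), of the Sf3a genes 1 of 3 (33.3%, 0.84 to 90.6) and of the Prpf genes 3 of 13 (23.1%, 5.04 to 53.8). The Lsm genes had 2 of 13 (15.4%, 1.92 to 45.4) and the Snrp genes 1 of 12 (8.33%, 0.211 to 38.5). The intervals of the Snrp, Lsm, Sf3a and Prpf families include the 6.43% of all protein-coding genes, and those of the Sf3b, Srsf, Hnrnp and Clk families lie above it. Grouped after the values were seen, the families that regulate splice choice (Srsf, Hnrnp and Clk) had 18 of 36 (50%, 32.9 to 67.1). The other families (Snrp, Lsm, Sf3a, Sf3b and Prpf), called the core families here, had 10 of 47 (21.3%, 10.7 to 35.7). Not all of their genes belong to the spliceosome core, and Lsm14a, which had a peak, does not. At room temperature the regulators had 8 of 36 (22.2%, 10.1 to 39.2) and the core families 0 of 47, an interval that reaches 7.55% and so includes the 0.864% of all protein-coding genes. These intervals cover counting error only, and genes are not replicates of a condition. Neither the difference between the families nor that of a family from all protein-coding genes was tested. The median length was 12.2 kb for the regulators and 14.3 kb for the core families, against 17.2 kb for all protein-coding genes.

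**Figure D1:**
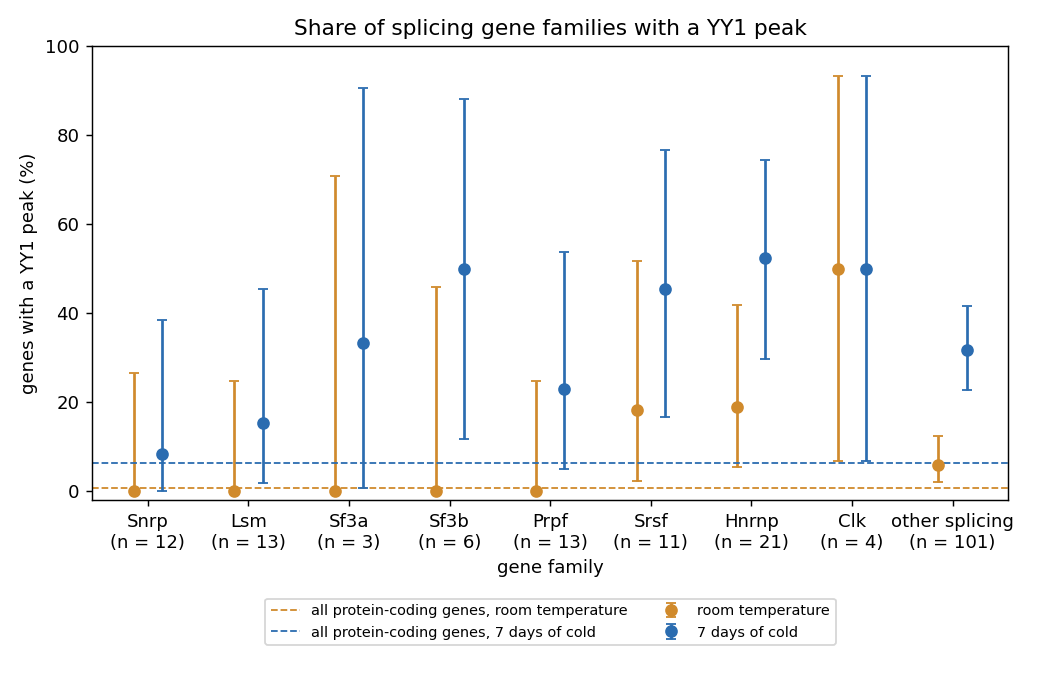
Share of genes with a YY1 peak (%, vertical axis) in each splicing gene family and in a list of other splicing genes (horizontal axis, n genes), at room temperature (orange) and after 7 days of cold (blue). Bars are exact 95% binomial intervals and dashed lines the shares of all protein-coding genes (0.864% and 6.43%); room temperature peaks were listed only in the Srsf, Hnrnp and Clk families and among the other splicing genes.

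Of the Hnrnp genes, Hnrnpul1, a member related to the nuclear scaffold protein hnRNP U, had the highest pileup of all 28 splicing genes. Its summit was covered by 18 fragments in the room temperature library (exact 95% Poisson interval 10.7 to 28.4) and by 79 in the cold library (62.5 to 98.5), in a peak on chromosome 7 from 25754431 to 25754988 (mm10), the 25th strongest of the cold list by q. Hnrnpa2b1, whose protein binds and sorts many RNAs, carried 17 fragments (9.9 to 27.2) and 53 after cold (39.7 to 69.3; chromosome 6, 51468857 to 51469688). Both cold intervals lay wholly above the room temperature ones.

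Hnrnpa1, a classical silencer of exons, had 9 fragments in the room temperature library (4.12 to 17.1) and 32 in the cold library (21.9 to 45.2; chromosome 15, 103240416 to 103240858). Hnrnpd, which encodes a regulator of mRNA decay, carried 12 (6.2 to 21) and 34 (23.5 to 47.5; chromosome 5, 99978696 to 99979038). These were the other Hnrnp genes in both lists. The remaining 7 Hnrnp genes with a peak were in the cold list only. Among them Hnrnph1, which binds runs of G, had 30 fragments (20.2 to 42.8), Hnrnpa3 had 25 (16.2 to 36.9) and Hnrnpc, which binds runs of U, had 23 (14.6 to 34.5). Hnrnpm had 22, Hnrnpdl 21, Hnrnph3 18 fragments. Hnrnpa0 had 11 fragments (5.49 to 19.7) at the summit with the higher q rank and 13 (6.92 to 22.2) at a separate summit 670 bp upstream of its start. The 10 Hnrnp genes without a listed peak were Hnrnpa1l2-ps2, Hnrnpab, Hnrnpf, Hnrnph2, Hnrnpk, Hnrnpl, Hnrnpll, Hnrnpr, Hnrnpu and Hnrnpul2. Some paralogues thus differed in listing: Hnrnpul1 was listed and Hnrnpul2 was not, and Hnrnph1 was listed and Hnrnph2 was not. Others, such as Hnrnpd and Hnrnpdl, were both listed after cold. The nearest cold summit lay 3.33 kb from Hnrnpul2.

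Of the SR protein genes, Srsf3, which encodes a small SR protein that also acts in mRNA export, had the highest values. It had 22 fragments in the room temperature library (13.8 to 33.3), the highest room temperature pileup of the members, and 53 after cold (39.7 to 69.3; chromosome 17, 29032247 to 29033161). A weaker summit of 11 fragments lay in the same cold interval, 319 bp upstream of the gene. Srsf7, a close relative of Srsf3, carried 12 fragments (6.2 to 21) and 29 after cold (19.4 to 41.6; chromosome 17, 80206655 to 80207265). The 3 other SR genes were listed after cold only. Srsf2, an activator of exons, had summits of 24 fragments (15.4 to 35.7) and 21 fragments in separate peaks, Srsf5 had 21 (13 to 32.1) and Srsf1, the founding member of the family, had 17 (9.9 to 27.2). Srsf4, Srsf6, Srsf9, Srsf10, Srsf11 and Srsf12 had none listed.

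Of the SR protein kinases, Clk1 had 8 fragments in the room temperature library (3.45 to 15.8) and 30 in the cold library (20.2 to 42.8; chromosome 1, 58423460 to 58423996), intervals that do not overlap. Clk4 carried 9 (4.12 to 17.1) and 17 (9.9 to 27.2; chromosome 11, 51263032 to 51263372), intervals that do overlap. Clk2 and Clk3 had no listed peak.

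The core families were listed after cold only. Sf3b3, which encodes a scaffold subunit of the SF3b complex, had 33 fragments (22.7 to 46.3; chromosome 8, 110846462 to 110847292), with a second summit of 15 fragments in the same interval. Sf3b1, whose protein clamps the branch point and is the target of splicing inhibitors, had 32 fragments (21.9 to 45.2; chromosome 1, 55027002 to 55027446). Sf3b4 had 18 (10.7 to 28.4), from a summit 111 bp outside the gene, and Sf3a1, a subunit of SF3a, had 15 (8.4 to 24.7). Sf3a2, Sf3a3, Sf3b2, Sf3b5 and Sf3b6 had none listed.

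Prpf8, the largest protein of the catalytic core, had 23 fragments (14.6 to 34.5; chromosome 11, 75486754 to 75487140). Prpf38b had 16 (9.15 to 26). Prpf40b had 9 (4.12 to 17.1), from a summit 749 bp outside the gene and 14483 bp from its listed start, and an end of Fmnl3 was within 1 kb too. This was the member closest to the 1 kb limit from inside. From outside, the nearest cold summits were 2.06 kb from Hnrnpu, 2.85 kb from Prpf31 and 2.99 kb from Hnrnpl. The 10 Prpf genes without a listed peak include Prpf3, Prpf4, Prpf6 and Prpf31 of the tri-snRNP and Prpf19.

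Of the Snrp genes, which mostly encode the Sm ring, only Snrpb had a peak, with 8 fragments (3.45 to 15.8), the lowest value among the 28 members. Snrpd1, Snrpd2, Snrpd3, Snrpe, Snrpf and Snrpg of the same ring had none, nor had Snrpa, Snrpa1, Snrpb2, Snrpc or Snrpn. Of the Lsm genes, Lsm7, a subunit of the Lsm rings, had 18 fragments (10.7 to 28.4) and Lsm14a, a protein of cytoplasmic mRNA granules, had 14 (7.65 to 23.5). The other 11 Lsm genes, Lsm2 to Lsm6 and Lsm8 of the nuclear ring among them, had none. An unlisted gene has no value rather than a value of 0, and the smallest listed pileup was 6 fragments in either library.

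The strongest cold summit per member, here and below the one with the highest −log10 q, had a median of 22.5 fragments (quartiles 17 and 30.5), against 21 (15 and 29) for all cold peaks that reach a protein-coding gene. The value for all cold peaks counts every entry, and over every entry at the members the median was also 21 (15.8 and 30). The splicing genes were thus listed often, with pileups near the middle of the list. The median was 24.5 for Srsf, Hnrnp and Clk genes and 17 for the core families. Members also listed at room temperature had a cold median of 33 fragments and those listed after cold only a median of 19.5, with ranges of 17 to 79 and 8 to 33 that overlap.

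**Figure D2:**
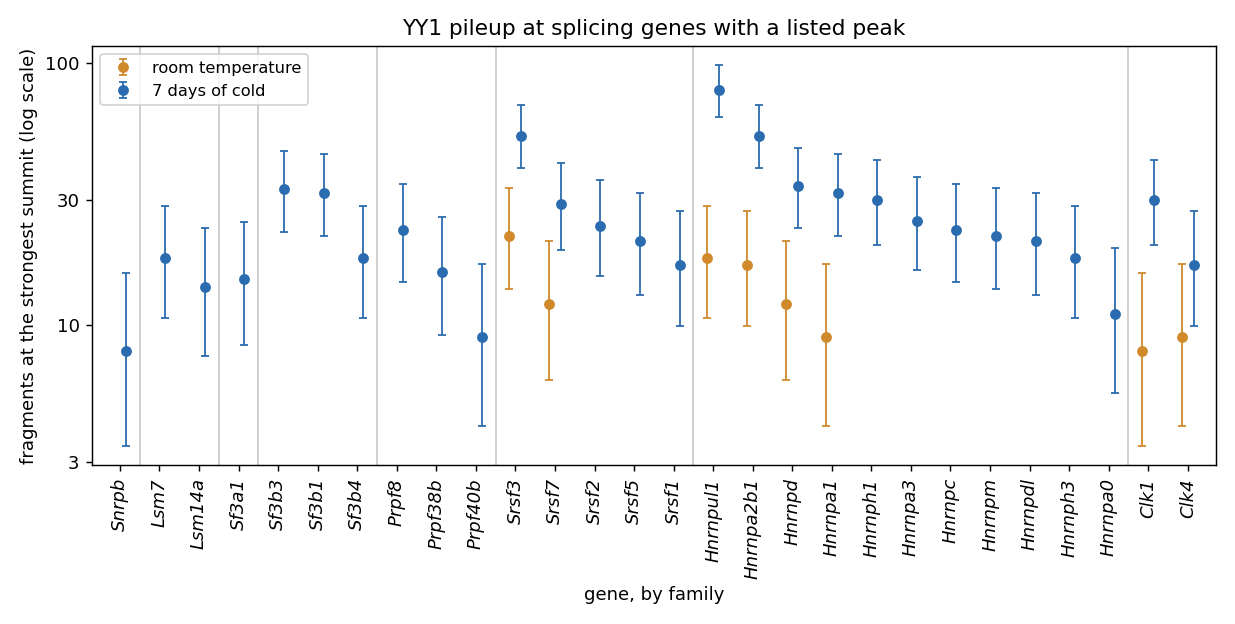
Fragments at the strongest summit by q (vertical axis, log scale) of each splicing gene with a listed peak (horizontal axis, grouped by family), at room temperature (orange) and after 7 days of cold (blue), with exact 95% Poisson intervals. All 8 room temperature values belong to Srsf, Hnrnp and Clk genes, and Hnrnpul1 has the highest cold value, 79 fragments.

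All 8 splicing peaks found in both lists had more fragments in the cold library, as had every other shared peak plotted. The ratio of cold to room temperature had a median of 2.98 at the 8 peaks (quartiles 2.41 and 3.6), and 3.27 (2.57 and 4.17) at all 154 shared peaks whose background did not exceed 10 fragments. It was highest at Hnrnpul1, 4.39 (exact 95% interval 2.61 to 7.78), and 29 shared peaks had a higher one. It was 3.75 at Clk1 (1.68 to 9.47), 3.56 at Hnrnpa1 (1.66 to 8.47), 3.12 at Hnrnpa2b1 (1.78 to 5.74) and 2.83 at Hnrnpd (1.43 to 6.01). Srsf3 and Srsf7 had ratios of 2.41 (1.44 to 4.16) and 2.42 (1.2 to 5.2). The lowest was 1.89 at Clk4 (0.796 to 4.81), the only one of the 8 whose interval includes 1. All 8 intervals overlap one another, and no member's ratio lies outside the range over all shared peaks, 1.36 to 10.1. From the authors' deposited fold enrichments the median ratio of the 8 was 2.04, and the order changed. By the authors' deposited values, Hnrnpul1 remained highest at 5.52, followed by Srsf3 at 3.61, Srsf7 at 2.39, Hnrnpa2b1 at 2.09, Clk1 at 1.99, Hnrnpa1 at 1.76, Hnrnpd at 1.41 and Clk4 at 1.4.

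**Figure D3:**
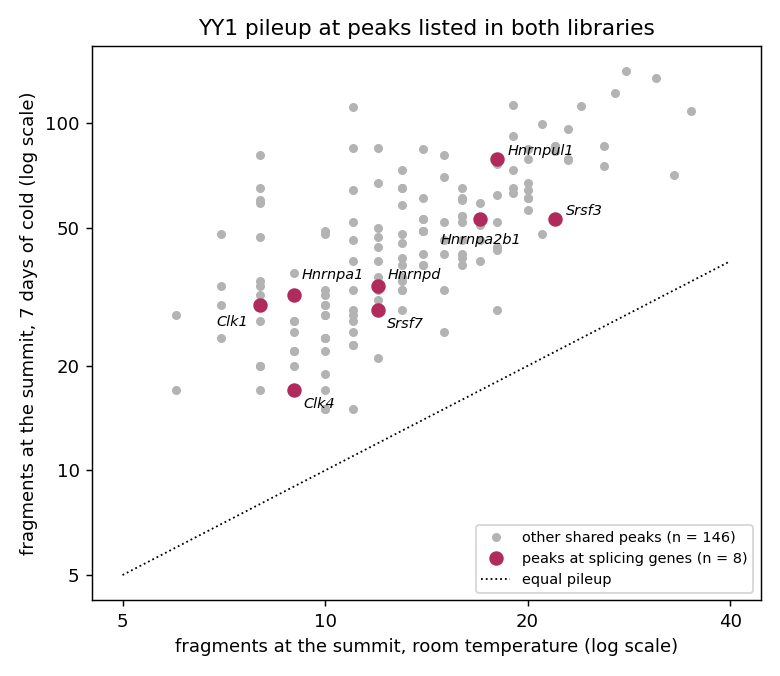
Fragments at the summit after 7 days of cold (vertical axis) against room temperature (horizontal axis), both on log scales, for the 154 peaks in both lists whose background did not exceed 10 fragments; each point is a peak, red points lie at splicing genes, and the dotted line marks equal pileup. The 8 splicing peaks lie above the line and among the other shared peaks, with Hnrnpul1 at 18 and 79 fragments and Clk4 at 9 and 17.

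Transcription starts were taken from a RefSeq promoter table of the same assembly, which listed a start for 71 of the 83 members and 25 of the 28 with a cold peak. At these 25 genes, 22 strongest summits lay downstream of the start (88%), against 64.4% of all genes bearing a cold peak and a listed start. The median position was 141 bp downstream at the members, and 58 bp at all such genes (quartiles -118 and 141). All positions are relative to the nearest listed start, which can lie inside the gene. At Srsf2 and Hnrnph1 the strongest cold summit lay upstream of that start but inside the gene. The SR and hnRNP genes stood farthest in. Of their 16 summits, 10 lay 200 to 1000 bp downstream of the start (62.5%), where 12.9% of all such genes and 5 of 21 other splicing genes (23.8%; the list is described last) had theirs. With the summit of most fragments in place of the strongest by q, 21 members lay downstream and 9 of these 16 in this stretch, since the Hnrnpa0 summit with 13 fragments lies 670 bp upstream. The strongest cold summit lay 593 bp downstream at Hnrnpa2b1, 581 bp at Hnrnpa3, 522 bp at Srsf5, 417 bp at Hnrnpa0, 383 bp at Hnrnpdl, 375 bp at Srsf7, 341 bp at Srsf1, 275 bp at Hnrnpa1, 242 bp at Hnrnph3 and 216 bp at Srsf3. The other 6 lay nearer, at 87 bp (Hnrnpm), 72 bp (Hnrnpc), 70 bp (Hnrnpd) and 19 bp (Hnrnpul1) downstream, and 27 bp (Srsf2) and 129 bp (Hnrnph1) upstream. Of the 8 core-family summits with a start, only that of Sf3b1, 237 bp downstream, lay in the same stretch, and those of Prpf8, Sf3a1, Sf3b3 and Prpf38b lay 141, 90, 79 and 69 bp downstream. The 200 bp limit was chosen after the positions were seen, and a limit of 500 bp gave a smaller contrast. More than 500 bp downstream lay 3 of the 16 SR and hnRNP summits (18.8%), where 10% of all such genes had theirs. Within 500 bp of the start on either side lay 81.2% of the 16 and 83.2% of all such genes. The promoter table gives no exons. The room temperature summits lay 558 bp downstream at Hnrnpa2b1, 288 bp at Hnrnpa1, 217 bp at Srsf3, 198 bp at Srsf7, 106 bp at Hnrnpd, 56 bp at Clk4 and 17 bp at Hnrnpul1. All 7 were thus downstream, where 55.7% of all genes bearing a room temperature peak and a listed start had theirs.

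**Figure D4:**
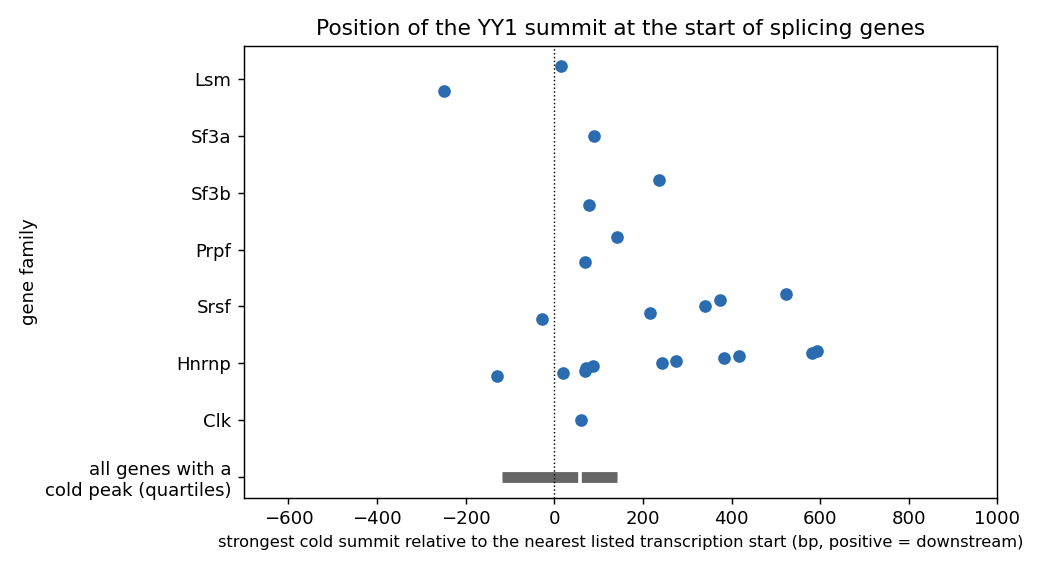
Position of the strongest cold summit (by q) relative to the nearest listed transcription start (horizontal axis, bp, positive downstream) for each splicing gene, by family (rows), with the quartiles and median of all genes with a cold peak as a grey bar. SR and hnRNP summits had a median of 258 bp downstream and reached 593 bp. The median of all genes was 58 bp, and 10% of them lay more than 500 bp downstream. Prpf40b, at 14483 bp, is off the axis.

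The sequence at the starts was searched for the core of the YY1 motif, CCATNTT, and for a longer form, the same core with GCNG directly before it, on both strands. Each match of the longer form is thus also a match of the core. The windows ran from 250 bases before to 50 after each listed start, so summits farther in lie outside them. Of the 71 members with a window, 16 held the core (22.5%), where 17.3% of all protein-coding genes did, and 3 held the longer form (4.23%), where 2.62% did. A cold peak overlapped a window at 19 members, and 8 of these held the core (42.1%) and 2 the longer form (10.5%). Over all genes with a window that a cold peak overlaps, 62.2% held the core and 33.9% the longer form. A match is a description of letters and no shown binding site.

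The stretches around the core of these 8 genes are shown for a comparison of the match and its surroundings. They are from RefSeq, build GRCm38.p6, on the strand of the gene, with the match in capitals (the longer form where present). They run from 60 bases before the start to the first 30 transcribed ones, except at Lsm7 and Sf3a1, where 30 bases around the match are given. At Lsm7 the core is on the opposite strand and reads AAGATGG here.
Hnrnpul1: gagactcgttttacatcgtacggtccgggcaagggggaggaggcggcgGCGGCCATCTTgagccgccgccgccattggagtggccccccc
Sf3a1: ctgggtcGCCGCCATCTTgtcattgagttg
Prpf38b: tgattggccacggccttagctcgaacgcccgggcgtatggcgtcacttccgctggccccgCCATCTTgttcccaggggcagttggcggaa
Lsm7: cgtgaggcgacAAGATGGcggtgagcatgt
Hnrnpd: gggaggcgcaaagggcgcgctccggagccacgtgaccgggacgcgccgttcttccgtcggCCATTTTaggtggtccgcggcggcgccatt
Hnrnpc: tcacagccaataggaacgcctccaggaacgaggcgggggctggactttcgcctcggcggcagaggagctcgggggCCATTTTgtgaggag
Srsf2: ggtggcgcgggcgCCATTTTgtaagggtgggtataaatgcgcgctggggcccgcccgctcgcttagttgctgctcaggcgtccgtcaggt
Srsf5: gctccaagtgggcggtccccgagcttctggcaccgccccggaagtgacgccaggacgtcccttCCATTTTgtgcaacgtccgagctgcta

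The stretch at Hnrnpul1 is chr7:25754730-25754819 on the minus strand, and that at Sf3a1 is chr11:4160374-4160403 on the plus strand. The others are chr3:108911700-108911789 (minus) at Prpf38b, chr10:80855171-80855200 (minus) at Lsm7, chr5:99978909-99978998 (minus) at Hnrnpd, chr14:52103992-52104081 (minus) at Hnrnpc, chr11:116853065-116853154 (minus) at Srsf2 and chr12:80945439-80945528 (plus) at Srsf5. At Hnrnpul1, the member with the highest pileup, the middle of the core lay 24 bp from the cold summit, and at Srsf2 17 bp. The distance was 44 bp at Lsm7, 54 bp at Hnrnpc, 56 bp at Sf3a1, 66 bp at Prpf38b and 67 bp at Hnrnpd. At Srsf5 it was 516 bp, so the core at that start lay away from the summit.

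Many of the peaks lay near a neighbouring gene as well. At 15 of the 28 members the strongest cold summit was also within 1 kb of an end of another protein-coding gene (53.6%), where 37.2% of all genes bearing a cold peak were. Hnrnpa1 and Hnrnpa2b1 both lie head to head with a gene of heterochromatin protein 1, Cbx5 and Cbx3, with 545 bp and 722 bp between the listed starts. The Hnrnpa2b1 and Cbx3 promoter pair is known as a chromatin-opening element that resists silencing. Starts on opposite strands also lay close together at Hnrnpd with 4930524J08Rik (3 bp), Clk4 with BC049762 (57 bp), Sf3a1 with Ccdc157 (61 bp), Lsm7 with Sppl2b (66 bp), Sf3b3 with Cog4 (203 bp), Hnrnph3 with Pbld2 (663 bp), Srsf2 with Mfsd11 (668 bp) and Hnrnpdl with Enoph1 (772 bp). The summit at Srsf7 lay within 1 kb of an end of Gemin6, a gene of the complex that assembles Sm rings. A peak within 1 kb of both genes of such a pair cannot be given to 1 of them, also where its summit lies inside the splicing gene. More than 1 cold entry was found at 4 members, Hnrnpa0, Srsf2, Srsf3 and Sf3b3 (14.3%), where 4.91% of all genes bearing a cold peak had more than 1.

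The other genes of splicing were described with a list of 101 genes outside these families, all found in the gene table. After cold 32 of them had a peak (31.7%, 22.8 to 41.7), a share near that of the members, and at room temperature 6 did (5.94%, 2.21 to 12.5). The strongest were Tra2b, an SR-like activator of exons, with 54 fragments (40.6 to 70.5), and Snrnp35, a protein of the minor spliceosome, with 49 (36.3 to 64.8). Among the next by q were Ik with 41, the SF3b subunit gene Phf5a with 42, Cwc25 with 33, Rbm5 with 34, Son with 34, Luc7l3 with 36 and Rnps1 with 27 fragments. The summit at Ik also reached an end of Ndufa2, that at Cwc25 Pip4k2b, that at Son Gart and that at Rnps1 Eci1.

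Among the genes of this list in both lists of peaks were Tardbp, Ptbp1, Son, Sfswap, and Gemin6, which shares the peak of Srsf7. Tardbp had 10 fragments in the room temperature library and 28 in the cold library, Son 8 and 34, and Sfswap 8 and 35. Ptbp1 had 11 and 34, but at different summits. Relative to the nearest listed start, its room temperature summit lay at 279 bp and its cold summit at -206 bp. The values at Ptbp1 thus do not compare the same position. Tardbp and Ptbp1 encode RNA-binding proteins close to the hnRNPs, and Son and Sfswap encode proteins with the arginine and serine repeats of SR proteins.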

How the data were processed

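The tools named for these files are BWA, SAMtools, MACS2, deepTools and DESeq2, with the build mm10, per the submitters' processing notes. Versions, settings, control library and duplicate handling: not given in the sources used here. For each library the authors deposited its own peak list. Its columns are a score, a fold enrichment (a linear ratio), a −log10 p and a −log10 q per peak, all as deposited. The whole pileup was solved from fold = (pileup + 1) / (background + 1) and the Poisson p, and the fit to the −log10 p was within 0.0002 for all 165 and 1259 entries, 1 cold entry having a second solution. The code was tested on data simulated with these same formulas and with planted summits and motifs. Such a test cannot show whether the deposited values follow the formulas. Shares have exact Clopper-Pearson and pileups exact Poisson 95% intervals (counting error only; fragments can include PCR copies). Peaks were paired by an overlap of at least 1 bp, taking the closest summit. Python 3.11.15, NumPy 2.4.6, SciPy 1.17.1 and pandas 2.3.3 were used. Every member with a peak is named, and of the other splicing genes those in both lists and the 10 strongest by q; some that this rule names are not reported here. The members and lists were chosen with earlier results of these data known. Alternatives covered the window, assignment, q threshold, list length, pairing and motif.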

Additional observations from a re-analysis of the deposited data

How the results depend on the processing

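Leaving out a library would leave a condition empty and was not done. No paired analysis was possible because the groups hold a single library each. Of 60 values under an alternative, 48 stayed within 1.5 times a count, or within a share's interval or a ratio's quartiles. The other 12 moved, with the cause not tested beyond each setting's construction. Family shares made up 40 of the 60, and 31 of these stayed. Their intervals are wide, 0.84 to 90.6% for Sf3a, so staying within them says little. Leaving out Hnrnpa1l2-ps2, which has no peak, could not change a count of members with a peak. The count of members was 24 to 31 in the cold library and 7 to 8 in the other under every window, assignment and q threshold run. With only the 165 strongest cold peaks, the members with a peak moved from 28 to 3, and the family shares to 0% for Snrp, Lsm, Sf3a, Sf3b, Prpf and Clk, 9.09% for Srsf and 9.52% for Hnrnp. Counted within 1 kb of a listed start, the Snrp share moved to 0%. The Clk share was then 25%, the Sf3b share 33.3% and the Prpf share 15.4%, each still within its interval. These shares fell since Snrpb, Clk1 and Sf3b4 have no listed start and the Prpf40b summit lies far from its own. With gene ends only, the Hnrnp share was 38.1% and the Srsf share 36.4%, where 5.64% of all protein-coding genes had a cold peak. The median ratio at shared member peaks moved from 2.98 to 2.04 with the deposited fold enrichments and was 3.34 over the 6 peaks that overlap by 50% both ways. The longer motif was found at 3 members in place of 16. The settings on listed starts, on the summit of most fragments and on Hnrnpa1l2-ps2, and list length for family shares, were chosen after seeing the data. The unknown depth and the listing threshold limit every count.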

Other observations

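Because Hnrnpa1 and Hnrnpa2b1 share their peaks with Cbx5 and Cbx3, the third gene of heterochromatin protein 1, Cbx1, was looked up after these values were seen. It had 0 entries in either list. At Cbx5 the shared summit lay 820 bp upstream of the listed start, and at Cbx3 1364 bp upstream, so in both pairs the summit was nearer to the start of the hnRNP gene.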
